A study of Homo sapiens with 12 samples.

Results

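The neural adhesion and guidance genes, L1CAM, CADM1, PCDH10, NTN1 and CDH2, were followed across U251-APP cells that lacked either of the CTCF-binding sites called CTCF-A and CTCF-B. They were taken from the deposited expression table by gene symbol, and these 5 of its 11178 genes were all present and all passed the filter on low values, which kept 11128 genes. L1CAM, CADM1, PCDH10 and NTN1 were picked because their levels in the knockouts differed strongly from wild type and from each other, and CDH2 was added as an adhesion gene for comparison. The differences of these 5 genes between groups are therefore given as a description, with no test.

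U251-APP cells derive from a human glioblastoma with astrocytic features and stably express APP, the amyloid precursor protein, in a mutant form (K670N/M671L), and all 3 groups share that transgene. The groups were CTCF-A KO, CTCF-B KO and wild type (WT), with 4 libraries of total RNA each. In the knockouts, Cas9 with a pair of guide RNAs on either side of the site cut it out, and single-cell clones were taken on after sequencing of the region. Sample titles add Cas9-SP5 for CTCF-A KO and MTCH2-D8 for CTCF-B KO, which are not explained. The labels give no position for the sites, leave unsaid whether replicates were different clones or different cultures, and carry the CRISPR/Cas9 treatment entry on the WT samples too, so the errors and p-values cover the spread among these libraries, part or all of which may be technical.

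Cell adhesion molecules of neural tissue hold membranes together by binding a partner on the neighbouring cell, often another copy of the same protein, while guidance cues are secreted or membrane-bound proteins that attract or repel growing axons and migrating cells through dedicated receptors. L1CAM, a cell adhesion molecule of the immunoglobulin superfamily, promotes neurite outgrowth and the bundling of axons. CADM1, also called SynCAM 1, is an immunoglobulin-type molecule that joins membranes at synapses and epithelial junctions. PCDH10 is a protocadherin outside the protocadherin gene clusters, and CDH2 is N-cadherin, the classical cadherin that binds catenins inside the cell. NTN1 encodes netrin-1, a secreted laminin-related cue read by DCC, neogenin and UNC5 receptors. Many of these proteins are also made by glioma cells.

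Promoter sequences of L1CAM and CDH2 are shown because the deleted elements were CTCF sites and a promoter window of each holds letters from the core of the CTCF motif. RefSeq gave 2 windows per gene, and the other window of each gene held 0 cores. Each sequence is 300 bases from RefSeq on GRCh38.p14, from 250 bases before to 50 bases after a start of the gene, read on the minus strand, with capitals marking the core AGGGGGC or its reverse complement GCCCCCT. L1CAM lies at chrX:153875895-153876194 and CDH2 at chr18:28177081-28177380.
L1CAM: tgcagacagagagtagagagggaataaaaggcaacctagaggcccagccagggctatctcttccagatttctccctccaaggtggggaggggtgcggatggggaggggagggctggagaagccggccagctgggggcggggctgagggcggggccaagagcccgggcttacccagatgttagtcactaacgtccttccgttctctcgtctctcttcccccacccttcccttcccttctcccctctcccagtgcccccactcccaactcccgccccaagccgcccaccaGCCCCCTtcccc
CDH2: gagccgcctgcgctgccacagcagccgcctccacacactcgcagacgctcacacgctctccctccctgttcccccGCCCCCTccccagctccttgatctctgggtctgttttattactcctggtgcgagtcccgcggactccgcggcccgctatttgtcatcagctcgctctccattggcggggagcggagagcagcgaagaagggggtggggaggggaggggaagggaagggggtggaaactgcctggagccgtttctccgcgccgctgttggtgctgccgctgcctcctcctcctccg
Both strands were searched for 3 motifs. The core occurred 1 time in each of these windows, which were picked for holding it. Among 35116 RefSeq promoters of the same length 14.4% held it, which is no comparison for windows picked this way. In CDH2 the core overlaps the GC box. The L1CAM window held 4 GC boxes (GGGCGG or CCGCCC), 10 CpG pairs and 64.7% G + C, and the CDH2 window held 1 GC box, 23 CpG pairs and 67.0% G + C. A GC box was present in 45.0% of all promoters. Neither printed window held TATAAA, which 11.5% of promoters did. The other CDH2 window, at chr18:28036592-28036891, had 40.7% G + C and 1 TATAAA, and the other L1CAM window, at chrX:153875965-153876264, had 61.7% G + C and 2 GC boxes. The median promoter had 58.7% G + C and 14 CpG pairs. These matches are letters in a window and not measured binding.

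Levels below are the authors' normalized values on a log2 scale. Libraries of a group were close to each other in CTCF-B KO and WT, where the median absolute difference between replicates over all genes was 0.055 to 0.081 and 0.052 to 0.082. In CTCF-A KO it was 0.08 to 0.29, and its libraries differed in how strongly values followed gene GC content: the top decile of genes by GC content stood above the bottom decile, relative to WT, by a median of 0.959 in replicate 1, 0.445 in replicate 2, 0.655 in replicate 3 and 0.058 in replicate 4. That difference ran from -0.105 to 0.031 in CTCF-B KO and from -0.148 to 0.087 in WT. Values from which the trend on GC content and transcript length was removed in each library are called detrended below. They, and values in which replicate 4 stood alone for CTCF-A KO and was assumed to vary like the other groups, are given for the listed and nearest genes described where a call changed or a called value moved by over 1.5 times. Of 12 astrocyte and glioma markers, 8 were among the genes tested (GFAP, SLC1A3, SOX2, SOX9, FABP7, NES, VIM and CD44), and AQP4, SLC1A2, ALDH1L1 and S100B were not. Their summed linear level ran from 116000 to 130000 in CTCF-A KO, from 105000 to 109000 in CTCF-B KO and from 165000 to 188000 in WT. GFAP, the astrocyte filament protein, averaged 12.57 in CTCF-A KO cells and 12.83 in CTCF-B KO cells against 15.68 in WT. Of the 8 tested, GFAP differed most from WT in both knockouts, and it made up most of the gap between each knockout and WT in that sum. The glutamate transporter SLC1A3 averaged 9.90, 9.11 and 10.42 in CTCF-A KO, CTCF-B KO and WT in that order. The fatty acid binding protein FABP7 averaged 9.39, 10.06 and 10.86. In the same order, SOX2 averaged 12.56, 12.36 and 12.87, SOX9 averaged 12.37, 11.90 and 12.31, and NES averaged 13.60, 13.36 and 13.72. VIM averaged 15.94, 15.52 and 15.92, and CD44 averaged 14.83, 14.93 and 15.05. None of the 6 oligodendrocyte-lineage and 6 microglial markers was among the genes tested, while 4 of 10 neuronal markers were.

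L1CAM (ENSG00000198910, chromosome X, 153861514 to 153886174, minus strand, GENCODE 29 on GRCh38) differed from WT in opposite directions in the knockouts. It had 10.80, 10.62, 10.71 and 10.56 in the CTCF-A KO libraries, 7.59, 7.70, 7.73 and 7.49 in the CTCF-B KO libraries, and 9.54, 9.47, 9.44 and 9.48 in the WT libraries. Every CTCF-A KO library lay above every WT library and every CTCF-B KO library lay below, with no overlap among the 3 groups. The mean was 10.67 ± 0.10 in CTCF-A KO, 7.63 ± 0.11 in CTCF-B KO and 9.48 ± 0.04 in WT (log2, SD, n = 4 each). The difference from WT was 1.19 ± 0.06 on the log2 scale (SE) in CTCF-A KO, or 2.28-fold, and -1.86 ± 0.06 in CTCF-B KO, or 0.276 of the WT level. Between the knockouts the difference was 3.05 ± 0.06, or 8.26-fold, the 2nd highest of the 11128 genes. In bulk RNA, fewer cells of a type and less RNA per cell cannot be told apart.

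The summed level of the neuronal markers stood in the same group order as L1CAM. Summed on the linear scale, the 4 detected neuronal markers ran from 54400 to 62300 in CTCF-A KO, 13600 to 15300 in CTCF-B KO and 38900 to 42100 in WT. Most of that sum was NEFL, the light neurofilament chain, at 15.80, 13.74 and 15.28 in the 3 groups in that order. MAP2, a dendritic microtubule protein, averaged 9.54, 9.15 and 9.42, while the synaptic vesicle protein SYT1 averaged 7.82, 8.52 and 7.81 and the vesicle fusion protein SNAP25 averaged 5.35, 5.96 and 5.53, so SYT1 and SNAP25 were highest in CTCF-B KO. RBFOX3, STMN2, TUBB3, DCX, NEFM and SYN1 were not among the genes analysed here. The part of these markers in the result was not tested.

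CADM1 (ENSG00000182985, chromosome 11, 115169218 to 115504957, minus strand) was lower in both knockouts. It had 9.30, 9.45, 9.48 and 9.58 in the CTCF-A KO libraries, 9.86, 9.88, 9.94 and 9.88 in the CTCF-B KO libraries, and 11.70, 11.67, 11.67 and 11.74 in the WT libraries. All 8 knockout libraries lay below all WT libraries, and every CTCF-A KO library lay below every CTCF-B KO library. Relative to WT the difference was -2.24 ± 0.05 in CTCF-A KO, or 0.211 of the WT level and the 4th lowest of all genes, and -1.80 ± 0.05 in CTCF-B KO, or 0.287 of the WT level and the 18th lowest. The knockouts differed by -0.44 ± 0.05.

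PCDH10 (ENSG00000138650, chromosome 4, 133149315 to 133208606, plus strand) was higher in both knockouts. It had 10.25, 10.30, 10.38 and 10.29 in the CTCF-A KO libraries, 10.32, 10.34, 10.35 and 10.42 in the CTCF-B KO libraries, and 9.14, 9.25, 9.05 and 8.99 in the WT libraries. The libraries of the knockouts overlapped each other and lay above all WT libraries. The difference from WT was 1.20 ± 0.06 in CTCF-A KO, or 2.30-fold, and 1.25 ± 0.06 in CTCF-B KO, or 2.38-fold. Between the knockouts it was -0.05 ± 0.06. Detrended, the difference from WT was 1.58 in CTCF-A KO, against 1.29 in CTCF-B KO.

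NTN1 (ENSG00000065320, chromosome 17, 9021542 to 9244000, plus strand), the guidance ligand of the set, was lower in both knockouts and furthest from WT in CTCF-B KO. It had 9.17, 8.71, 8.92 and 8.85 in the CTCF-A KO libraries, 7.58, 7.74, 7.81 and 7.95 in the CTCF-B KO libraries, and 10.53, 10.53, 10.29 and 10.44 in the WT libraries. The 3 groups did not overlap. The difference from WT was -1.54 ± 0.10 in CTCF-A KO, or 0.344 of the WT level, and -2.68 ± 0.10 in CTCF-B KO, or 0.156 of the WT level and the 4th lowest of all genes. CTCF-A KO was 2.20-fold above CTCF-B KO.

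CDH2 (ENSG00000170558, chromosome 18, 27950966 to 28177446, minus strand), the reference adhesion gene, differed least. It had 11.08, 11.25, 11.23 and 11.45 in the CTCF-A KO libraries, 11.46, 11.42, 11.42 and 11.37 in the CTCF-B KO libraries, and 11.50, 11.48, 11.48 and 11.48 in the WT libraries. All knockout libraries lay below the WT libraries, by as little as 0.03 for CTCF-A KO and 0.02 for CTCF-B KO, and the knockouts overlapped. The difference from WT was -0.23 ± 0.06 in CTCF-A KO, or 0.851 of the WT level, and -0.07 ± 0.06 in CTCF-B KO, or 0.955 of the WT level. CTCF-A KO replicate 4, the library with the weakest GC trend, was within 0.04 of the WT mean. Detrended, the CTCF-A KO difference from WT was -0.11.

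**Figure D1:**
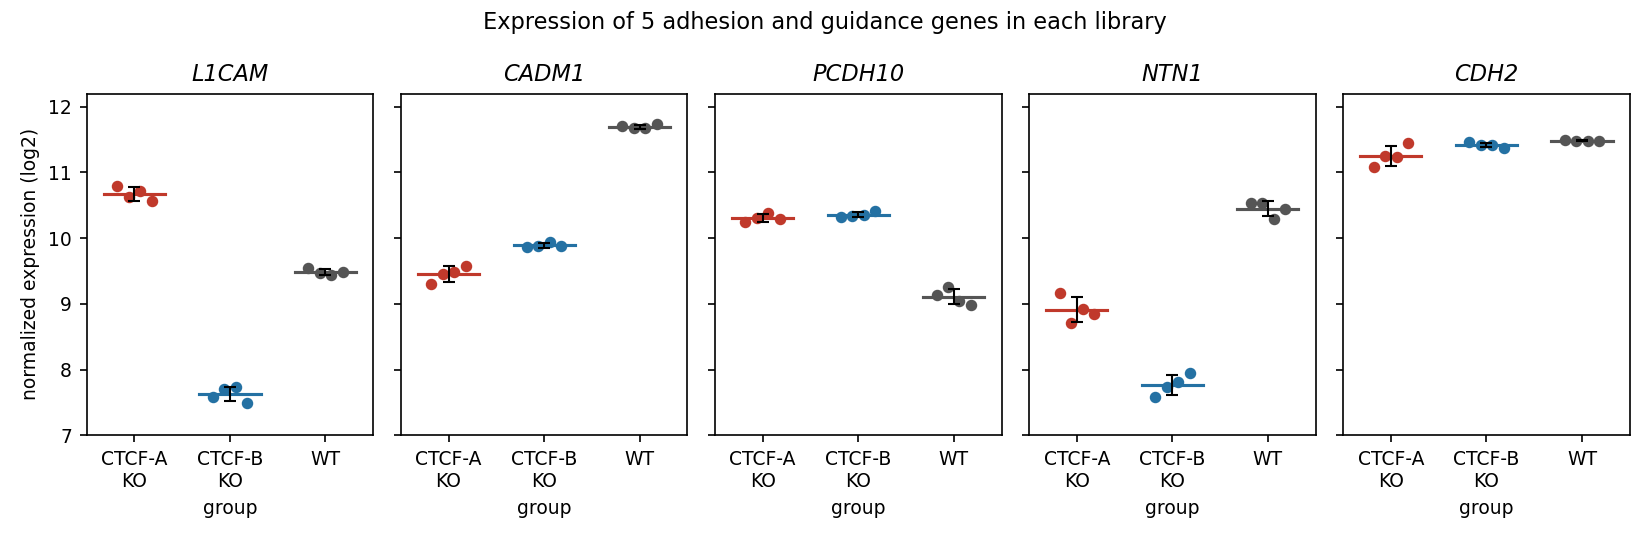
Normalized expression (log2) of L1CAM, CADM1, PCDH10, NTN1 and CDH2 in each library of CTCF-A KO, CTCF-B KO and WT; points are libraries and bars are means with SD, n = 4 each. L1CAM lies above WT in CTCF-A KO (10.67) and below it in CTCF-B KO (7.63), whereas CDH2 stays between 11.08 and 11.50 throughout.

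Groups did not overlap for 5 of the 5 genes in CTCF-A KO against WT, for 5 in CTCF-B KO against WT, and for 3 in CTCF-A KO against CTCF-B KO. Over all 11128 genes the groups did not overlap for 47.7%, 53.6% and 53.5% in these comparisons. Among all genes the CTCF-A KO libraries lay wholly above WT for 25.7% and wholly below for 22.1%, the CTCF-B KO libraries for 26.2% and 27.3%, and CTCF-A KO against CTCF-B KO for 28.3% and 25.3%. A difference of 2-fold or more from WT was seen in CTCF-A KO for 2 genes upward and 2 downward, beside 0.944% and 1.29% of all genes. In CTCF-B KO it was seen for 1 upward and 3 downward, beside 0.377% and 1.05%. Between the knockouts 2 were higher and 0 lower in CTCF-A KO by that much, beside 2.04% and 1.23%. Since these genes were chosen by the same contrasts, nothing is read from their counts. The order of the genes by level also differed between groups. Per kilobase of exon, on the log2 scale, CTCF-A KO had CDH2 (8.94), L1CAM (7.81), PCDH10 (6.96), NTN1 (6.24) and CADM1 (5.99) from high to low. CTCF-B KO had CDH2 (9.11), PCDH10 (7.01), CADM1 (6.43), NTN1 (5.10) and L1CAM (4.76). In WT the order was CDH2 (9.18), CADM1 (8.23), NTN1 (7.77), L1CAM (6.62) and PCDH10 (5.76). Neighbouring levels lay further apart than the sum of their SDs in every group except for NTN1 and CADM1 in CTCF-A KO, at 6.24 ± 0.19 and 5.99 ± 0.12. L1CAM thus stood at the 67.1 percentile of all genes per kilobase in CTCF-A KO, the 11.1 percentile in CTCF-B KO and the 43.1 percentile in WT, while CDH2 stood at 83.7, 86.9 and 87.2.

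The genes differ in composition. The longest transcripts of NTN1 and L1CAM hold 62.5% and 60.0% G + C, and those of CDH2, CADM1 and PCDH10 hold 45.0%, 44.3% and 41.9%. CTCF-A KO replicate 1, which has the strongest GC trend, was the highest library of its group for both GC-rich genes and the lowest for the other three. After removal of the trend, the CTCF-A KO differences from WT were 0.99 for L1CAM, -1.95 for CADM1 and -1.75 for NTN1. Annotated genes overlap L1CAM (2), CADM1 (3), NTN1 (1) and CDH2 (2), and none overlaps PCDH10. No overlapping gene was among those tested, and whether counting used strand is not given in the sources used here.

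Levels of some other genes followed these 5 closely over the 12 libraries, which share groups and GC trends, so the correlations are a description. Among genes whose SD over the libraries was at least 0.5 of that of the gene itself, L1CAM was closest to CPVL, S1PR5 and PLAU (Pearson r 0.998, 0.997 and 0.993, of 141 genes considered). CADM1 was closest to DACT1, KDR and TNFSF4 (0.991, 0.990 and 0.990, of 475). PCDH10 was closest to TAP2, APOL6 and OASL (0.982, 0.978 and 0.975, of 2615). NTN1 was closest to SCD, SCUBE3 and INSIG1 (0.994, 0.992 and 0.988, of 276). CDH2 was closest to SP1, RNF168 and ZYG11B (0.980, 0.974 and 0.973, of 10947), and the r with SP1 was 0.567 once the GC and length trend had been removed. OASL, an interferon-induced gene, averaged 8.63 in CTCF-A KO, 8.49 in CTCF-B KO and 6.74 in WT, and SCD, a fatty acid desaturase, averaged 12.53, 11.40 and 14.06 in the same groups.

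Other adhesion and guidance genes were then counted from lists of 171 relatives, receptors and partners, 76 of which were in the table, and all 76 were tested with limma at a Benjamini-Hochberg adjusted p under 0.05 over all genes. In CTCF-A KO against WT, 25 rose, 28 fell and 23 did not pass. Of all genes 62.9% passed in this comparison, 31.8% higher and 31.1% lower, and the median difference of the 76 was -0.04. In CTCF-B KO against WT, 9 rose, 39 fell and 28 did not pass, beside 39.4% of all genes, 18.9% higher and 20.6% lower. The model's SE pools the spread of all 12 libraries, so the wider spread of CTCF-A KO also enters this comparison. The narrower spread of CTCF-B KO likewise enters the comparison of CTCF-A KO with WT. With only the 8 libraries compared, 14 of the 76 rose and 43 fell in CTCF-B KO, and 22 rose and 26 fell in CTCF-A KO. The lower share passing in CTCF-B KO is therefore not read as fewer differences. Groups did not overlap for 53.6% of all genes in CTCF-B KO against WT and 47.7% in CTCF-A KO against WT. The median of the 76 in CTCF-B KO was -0.20. Once the trend on GC content and length was taken out, 16 rose and 41 fell, beside 25.9% and 27.5% of all genes. CTCF-A KO was higher than CTCF-B KO for 36 and lower for 26 of the 76, beside 66.0% of all genes (33.4% and 32.6%). Both knockouts are set against the same WT libraries, so their counts are not independent. The same shares of all genes stand beside the counts of each single list below. They were 31.8% higher and 31.1% lower in CTCF-A KO, and 18.9% and 20.6% in CTCF-B KO. Detrended, they were 28.8% and 32.7% in CTCF-A KO, and 25.9% and 27.5% in CTCF-B KO.

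**Figure D2:**
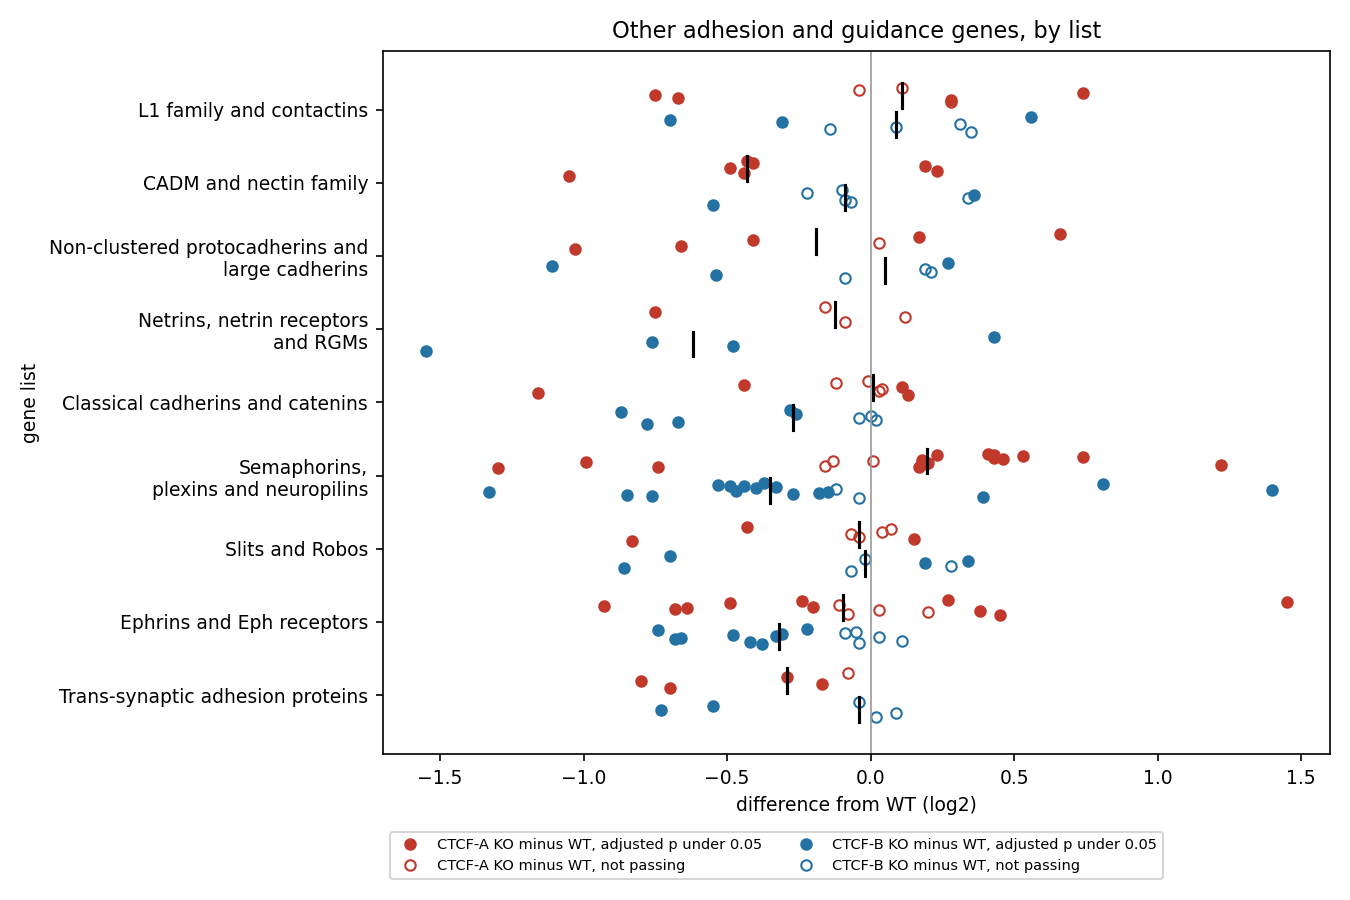
Log2 difference from WT of each tested gene in the adhesion and guidance lists, for CTCF-A KO and CTCF-B KO; each point is a gene, and filled points passed an adjusted p of 0.05. The semaphorin, plexin and neuropilin genes have medians of 0.20 (CTCF-A KO) and -0.35 (CTCF-B KO), or 0.04 and -0.26 when detrended.

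Of the netrins, netrin receptors and repulsive guidance molecules around NTN1, 4 genes were tested. In CTCF-A KO none rose and 1 fell, and in CTCF-B KO 1 rose and 3 fell. NTN4, another secreted netrin, fell by 1.55 ± 0.07 in CTCF-B KO (adjusted p = 5.57e-09), while the receptor NEO1, neogenin, fell by 0.48 ± 0.07 (adjusted p = 0.000243). Neither passed in CTCF-A KO, where the differences were -0.09 and 0.12, although NEO1 passed when detrended, at 0.19 (adjusted p = 0.0404), so that 1 rose. The difference between the knockouts passed for both, at 1.47 for NTN4 and 0.60 for NEO1 (adjusted p = 4.51e-09 and 1.47e-05). UNC5C, a receptor for repulsion by netrin-1, fell in both knockouts, by 0.75 ± 0.10 in CTCF-A KO cells and by 0.76 ± 0.10 in CTCF-B KO cells (adjusted p = 3.98e-05 and 6.06e-05). Detrended, the differences were -0.44 and -0.68, and CTCF-A KO stood 0.24 above CTCF-B KO (adjusted p = 4.19e-05). With replicate 4 alone the CTCF-A KO difference was -0.40. RGMB, a ligand of neogenin, rose by 0.43 ± 0.07 in CTCF-B KO (adjusted p = 0.000286). NTN1 itself is not counted in these lists.

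Relatives of L1CAM moved both ways. Of 7 genes tested in the L1 and contactin list, 2 rose and 2 fell in CTCF-A KO, and 1 rose and 2 fell in CTCF-B KO. Detrended, 4 rose and 2 fell in CTCF-A KO, while 3 rose and 2 fell in CTCF-B KO. With replicate 4 alone for CTCF-A KO, 4 rose and 1 fell there, and CTCF-B KO had 3 of each. CNTNAP1, a contactin-associated protein of the axon beside the node of Ranvier, rose by 0.74 ± 0.07 in CTCF-A KO (adjusted p = 2.1e-06) and fell by 0.31 ± 0.07 in CTCF-B KO (adjusted p = 0.00383), the same directions as L1CAM. NRCAM, the one other L1-family gene tested, was 0.28 ± 0.14 above WT in CTCF-A KO and stood 0.35 ± 0.14 above in CTCF-B KO (adjusted p = 0.0979 and 0.0692). Detrended, NRCAM passed in both, at 0.63 in CTCF-A KO cells and 0.37 in CTCF-B KO cells (adjusted p = 1.08e-06 and 0.00021), and with replicate 4 alone CTCF-A KO stood 0.81 above WT (adjusted p = 9.1e-07). CTCF-B KO then stood at 0.35 (adjusted p = 1.38e-05). CNTN1, a contactin, fell by 0.75 ± 0.13 in CTCF-A KO (adjusted p = 0.000316), where the difference was -0.35 when detrended and -0.28 with replicate 4 alone. In CTCF-B KO CNTN1 stood 0.31 ± 0.13 above WT (adjusted p = 0.0732), and it passed there when detrended, at 0.30 (adjusted p = 4.46e-05). Both directions were opposite to those of L1CAM.

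The CADM and nectin list held genes whose products bind each other across membranes, and also their partners inside the cell, AFDN and CASK. CADM4 was the one other CADM gene tested. It fell in both knockouts, by 1.05 ± 0.09 in CTCF-A KO cells and by 0.55 ± 0.09 in CTCF-B KO cells (adjusted p = 9.89e-07 and 0.000397). Of the 7 genes tested, 2 rose and 5 fell in CTCF-A KO and 1 of each in CTCF-B KO. After removal of the GC and length trend, 0 rose and 3 fell in CTCF-A KO, and with replicate 4 as its only library 0 rose and 2 fell. CTCF-B KO had 2 that rose and 3 that fell under each of these. PVR, the poliovirus receptor of the nectin family, rose by 0.36 ± 0.06 in CTCF-B KO (adjusted p = 0.000222).

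Protocadherins and large cadherins, the relatives of PCDH10, numbered 6 tested, of which 2 rose and 3 fell in CTCF-A KO and 1 rose and 2 fell in CTCF-B KO. Detrended, 2 rose and 4 fell in CTCF-A KO, while CTCF-B KO had 2 of each. With replicate 4 alone both knockouts had 2 of each. PCDH7 fell by 1.03 ± 0.08 in CTCF-A KO (adjusted p = 4.99e-07), where the detrended difference was -0.68. PCDH17 fell by 0.66 ± 0.10 in CTCF-A KO cells and by 0.54 ± 0.10 in CTCF-B KO cells (adjusted p = 9.68e-05 and 0.000715), and with replicate 4 alone the CTCF-A KO difference was -0.34. CELSR2, a seven-pass cadherin of planar polarity, fell by 1.11 ± 0.06 in CTCF-B KO (adjusted p = 3.36e-08), and its relative CELSR3 rose by 0.66 ± 0.07 in CTCF-A KO cells and by 0.27 ± 0.07 in CTCF-B KO cells. Detrended, CELSR3 stood at 0.32 in CTCF-A KO cells and 0.46 in CTCF-B KO cells, and the difference between the knockouts was 0.39 as deposited and -0.14 detrended (adjusted p = 0.000456 and 0.0305).

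Cadherins and catenins, the group of CDH2, had 8 tested genes. In CTCF-A KO 2 rose and 2 fell, and in CTCF-B KO none rose and 5 fell. Detrended, 2 rose and 6 fell in CTCF-A KO, with CDH4, CDH24, CTNND2 and JUP added to those that fell, and with replicate 4 alone none rose and 2 fell. The catenins CTNNB1 and CTNNA1, which link cadherins to actin, differed by 0.04 ± 0.04 and 0.11 ± 0.03 in CTCF-A KO and by -0.04 ± 0.04 and 0.00 ± 0.03 in CTCF-B KO, and of these 4 differences the one that passed was CTNNA1 in CTCF-A KO (adjusted p = 0.00743). Detrended, CTNNB1 also passed there, at 0.26 (adjusted p = 0.000174), and with replicate 4 alone CTNNA1 did not, at 0.08 (adjusted p = 0.0776). CTNND1, p120-catenin, fell by 0.44 ± 0.05 in CTCF-A KO cells and by 0.26 ± 0.05 in CTCF-B KO cells, and its detrended CTCF-A KO difference was -0.29. Among the cadherins, CDH10 fell by 1.16 ± 0.11 in CTCF-A KO (adjusted p = 2.9e-06) and CDH4 fell by 0.78 ± 0.04 in CTCF-B KO (adjusted p = 1.17e-08).

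Semaphorins, plexins and neuropilins, the other large guidance system, had opposite balances in the knockouts. Of 18 tested genes, 12 were raised and 3 lowered in CTCF-A KO, and 3 rose and 13 fell in CTCF-B KO. Their medians were 0.20 and -0.35. Detrended, 9 rose and 6 fell in CTCF-A KO with a median of 0.04, and CTCF-B KO again had 3 and 13, with a median of -0.26. With replicate 4 alone CTCF-A KO had 9 and 3, with a median of 0.13. Between the knockouts 13 were higher and 4 lower in CTCF-A KO. The 6 plexins, the receptors, were singled out after their values were seen. All 6 rose in CTCF-A KO, the median being 0.44, and 5 fell in CTCF-B KO, with a median of -0.42. PLXNA1 did not pass there, at -0.12 (adjusted p = 0.0562), but it did with replicate 4 alone for CTCF-A KO (adjusted p = 0.00288). Detrended, 5 plexins rose and 1, PLXNA1, fell in CTCF-A KO, at -0.09 (adjusted p = 0.0137), and the plexin medians were 0.21 in CTCF-A KO cells and -0.29 in CTCF-B KO cells. PLXNB2 rose by 0.74 ± 0.05 in CTCF-A KO and fell by 0.44 ± 0.05 in CTCF-B KO (adjusted p = 2.37e-07 and 3.54e-05), where the detrended CTCF-B KO difference was -0.29. Among the ligands, SEMA4B rose by 1.22 ± 0.07 in CTCF-A KO and fell by 0.27 ± 0.07 in CTCF-B KO (adjusted p = 1.68e-08 and 0.00561), and SEMA6B fell by 0.99 ± 0.09 and 1.33 ± 0.09 in CTCF-A KO cells and CTCF-B KO cells (adjusted p = 1.3e-06 and 1.14e-07). NRP1, a co-receptor of class 3 semaphorins, rose in both knockouts, by 0.81 ± 0.06 in CTCF-B KO (adjusted p = 5.16e-07). In CTCF-A KO it rose by 0.23 ± 0.06 (adjusted p = 0.00741), where the detrended difference was 0.44.

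**Figure D3:**
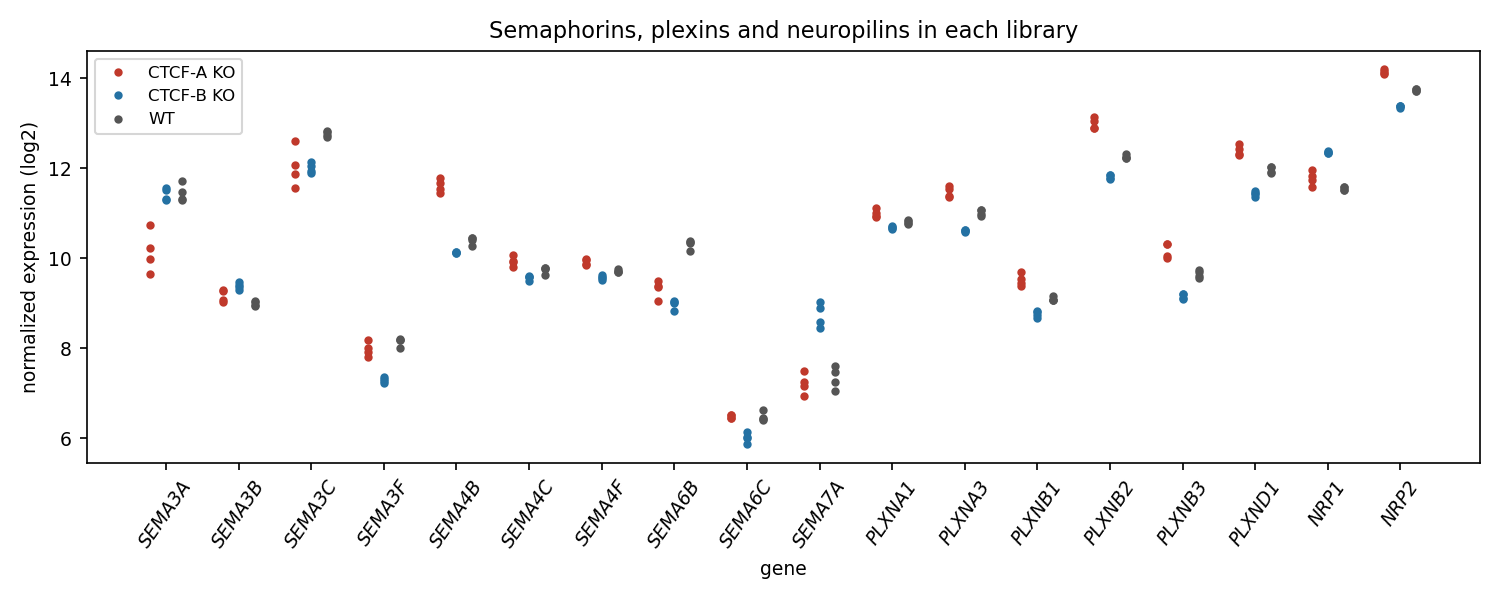
The 18 tested semaphorin, plexin and neuropilin genes in CTCF-A KO cells and CTCF-B KO cells beside WT, on the log2 scale. Relative to WT, all 6 plexins averaged higher in CTCF-A KO and lower in CTCF-B KO, with differences of 0.74 and -0.44 for PLXNB2. With the GC and length trend removed, PLXNA1 differed from WT by -0.09 in CTCF-A KO.

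Further lists were counted. Of 14 ephrin and Eph receptor genes, 4 were raised and 6 lowered in CTCF-A KO, and none rose and 9 fell in CTCF-B KO. With replicate 4 alone CTCF-A KO had 3 and 4. EPHB2, an ephrin-B receptor, rose by 1.45 ± 0.05 in CTCF-A KO (adjusted p = 7.47e-10) and differed by -0.05 in CTCF-B KO (adjusted p = 0.502), while CTCF-A KO stood 1.50 above CTCF-B KO (adjusted p = 2.47e-10). Its ligand EFNB2 fell by 0.68 ± 0.06 in CTCF-A KO cells and by 0.66 ± 0.06 in CTCF-B KO cells (adjusted p = 1.23e-06 and 2.2e-06). Of 7 Slit and Robo pathway genes, 1 was raised and 2 were lowered in CTCF-A KO and 2 rose and 2 fell in CTCF-B KO. Detrended, CTCF-A KO had 1 and 3 and CTCF-B KO had 3 and 2, and with replicate 4 alone CTCF-A KO had 3 and 2, as did CTCF-B KO. The repellent SLIT2 fell by 0.83 ± 0.09 in CTCF-A KO (adjusted p = 7.37e-06), where the difference was -0.53 with replicate 4 alone, and SLIT3 fell by 0.86 ± 0.05 in CTCF-B KO (adjusted p = 7.5e-08). Of 5 trans-synaptic adhesion genes none rose, 4 fell in CTCF-A KO and 2 fell in CTCF-B KO. Detrended, NLGN2 and ADGRL1 rose in CTCF-B KO, at 0.17 and 0.13 (adjusted p = 0.00406 and 0.00612). In CTCF-A KO ADGRL1, which had not passed as deposited, then fell, at -0.32 (adjusted p = 2.67e-06). TENM3 no longer passed there, at -0.10 (adjusted p = 0.121). With replicate 4 alone the CTCF-A KO differences were -0.26 for NLGN1, -0.21 for NLGN2, -0.71 for TENM2 and 0.08 for TENM3. TENM2, a teneurin, fell by 0.80 ± 0.04 in CTCF-A KO cells and by 0.73 ± 0.04 in CTCF-B KO cells (adjusted p = 5.2e-09 and 1.34e-08).

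Most genes near L1CAM on the X chromosome rose in CTCF-A KO, and none rose in CTCF-B KO. Within 1 Mb of L1CAM, from start to start, 33 genes were tested, and 26 rose and 3 fell in CTCF-A KO, beside 31.8% and 31.1% of all genes. In CTCF-B KO none rose and 17 fell, beside 18.9% and 20.6%. The median was 0.32 for CTCF-A KO and -0.17 for CTCF-B KO. Removing the GC and length trend gave 17 and 4 with a median of 0.09 in CTCF-A KO cells, beside 28.8% and 32.7% of all genes. In CTCF-B KO it gave 1 and 22 with a median of -0.19, beside 25.9% and 27.5%. Between the knockouts 29 were higher and none lower in CTCF-A KO, beside 33.4% and 32.6% of all genes. With the trend removed they were 25 and 3, beside 32.8% and 35.5%. The neighbours varied less than L1CAM, by -0.25 to 0.68 in CTCF-A KO and by values up to 1.00 below and 0.21 above WT in CTCF-B KO. The nearest on the side of lower coordinates was PDZD4, 55.6 kb away, which fell by 1.00 ± 0.14 in CTCF-B KO (adjusted p = 0.000103) and differed by 0.06 in CTCF-A KO (adjusted p = 0.732). On the other side NAA10, 49.0 kb away, rose by 0.32 ± 0.09 in CTCF-A KO (adjusted p = 0.00865), but did not pass when detrended, at 0.09 (adjusted p = 0.135), or with replicate 4 alone, at 0.00 (adjusted p = 0.982). In CTCF-B KO NAA10 differed by -0.15 (adjusted p = 0.206), and passed when detrended, at -0.20 (adjusted p = 0.00364). PLXNA3 and PLXNB3 are among these neighbours.

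**Figure D4:**
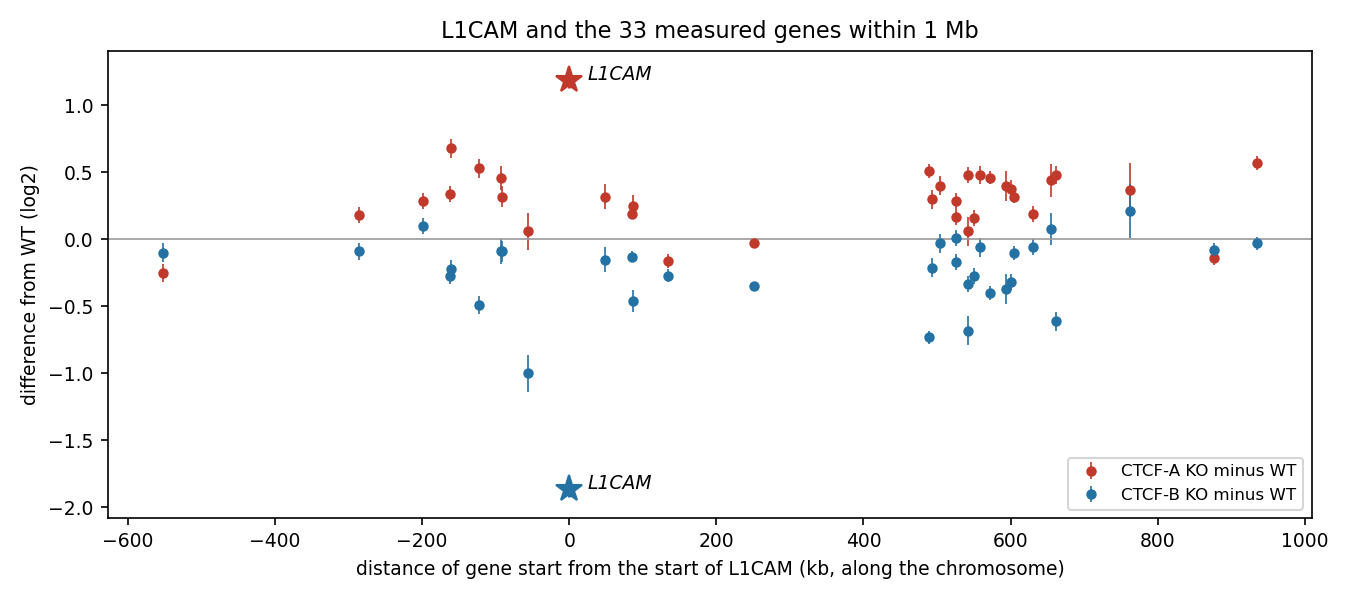
Log2 difference from WT of the 33 genes tested within 1 Mb of L1CAM, and of L1CAM itself, by distance from the gene, in CTCF-A KO cells and CTCF-B KO cells. Neighbours run from -0.25 to 0.68 in CTCF-A KO, whereas in CTCF-B KO none passes upward and 17 pass downward, and L1CAM lies at 1.19 and -1.86.

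Around NTN1, 14 genes were tested within 1 Mb. In CTCF-A KO 7 rose and 2 fell, beside 31.8% and 31.1% of all genes. In CTCF-B KO 3 rose and 1 fell, beside 18.9% and 20.6%. With the trend removed, 3 rose and 5 fell in CTCF-A KO, beside 28.8% and 32.7% of all genes. MYH10, a non-muscle myosin heavy chain 391 kb from NTN1, fell by 0.75 ± 0.09 in CTCF-A KO cells and by 0.83 ± 0.09 in CTCF-B KO cells (adjusted p = 2.01e-05 and 1.4e-05), and with replicate 4 alone the CTCF-A KO difference was -0.41. STX8 on the other side rose by 0.30 ± 0.08 in CTCF-A KO (adjusted p = 0.00439), but did not pass with replicate 4 alone, at 0.09 (adjusted p = 0.396). No gene was tested within 1 Mb of CADM1, PCDH10 or CDH2. The nearest to CADM1 were REXO2 and BUD13, which fell by 0.18 ± 0.07 and 0.18 ± 0.05 in CTCF-A KO (adjusted p = 0.0337 and 0.0129). Their detrended differences there were -0.26 and -0.34. In CTCF-B KO REXO2 rose by 0.29 ± 0.07 (adjusted p = 0.00323), and BUD13 differed by -0.07 (adjusted p = 0.339). DSG2, a desmosomal cadherin and the nearest gene to CDH2 on the higher side, differed by -0.21 ± 0.17 in CTCF-A KO cells and by 0.19 ± 0.17 in CTCF-B KO cells (adjusted p = 0.303 and 0.411), and with replicate 4 alone for CTCF-A KO it passed in both, at 0.39 and 0.19 (adjusted p = 0.00664 and 0.0191).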

How the data were processed

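Expression was measured by RNA-seq of total RNA in 12 libraries of U251-APP cells, 4 each of CTCF-A KO, CTCF-B KO and WT. Per the submitters' processing notes, the authors used Trimmomatic 0.33, featureCounts and DESeq2 with GRCh38.p7. The aligner, annotation, strand setting and filter are not given in the sources used here. The values the authors deposited are normalized expression on a log2 scale. The transformation is not recorded and whole reads could not be recovered, so depth is unknown and no counting interval is given. The design had foreseen linear values, and the log2 values were used as they stood. Reads of close paralogs may have been split.

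Genes reaching 10 on the linear scale in at least 4 of the 12 libraries were kept (11128 of 11178). One limma 3.58.1 model (R 4.3.3, trended empirical Bayes) was fitted to all libraries, with two-sided tests and Benjamini-Hochberg adjustment over all kept genes at 0.05. Differences are of group means with the model's SE. The model was tested on simulated data first. The 5 genes, the lists and the tests were chosen with earlier results of these data known.

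Genes named in the text were drawn by rule. The rule took the 5 genes, and up to 2 genes per list and comparison with the smallest adjusted p. It also took the 3 genes most correlated with each of the 5, the nearest kept neighbours of the 5, and whole families under 6 genes. Not all of these were described. Left out were CNTNAP3, ANK2 and EPHB3 (-0.70, 0.56 and -0.74 in CTCF-B KO) and NECTIN1 (-0.44 in CTCF-A KO). SRGAP3 (-0.43 and -0.70 in CTCF-A KO and CTCF-B KO) and the neighbours C4orf33, PCDH18 and KCTD1 were also left out. Further plexins, NRCAM, CTNNB1, CTNNA1, CDH24 and JUP were named after their values were seen. Positions, exon lengths and GC content came from GENCODE 29 (11145 of 11178 identifiers), promoters from RefSeq GRCh38.p14, which matched 2 of the 5 genes. Alternatives were the replicate number as a block, a GC and length trend removed (natural splines with 5 and 4 degrees of freedom), both together, other filters, a pseudocount of 16, quantile normalization, only the 8 libraries compared, and each library left out. An alternative in which replicate 4 stood alone for CTCF-A KO was added after seeing the data.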

Additional observations from a re-analysis of the deposited data

Results flagged for a closer look

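Among 117 groups of 4 libraries checked, over 39 genes, 7 held a library that stood apart from the other three by Dixon's ratio of gap to range, and chance alone marks about 1 group in 20. None of the 5 adhesion and guidance genes was among them. In all, 4 of the 7 were WT replicate 3.

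In WT replicate 3, CTNND2 had 9.94 against 10.22 to 10.23 in the other WT libraries (ratio 0.979), and SLIT2 had 11.29 against 11.18 to 11.19 (0.966). NTN4 had 10.25 against 10.37 to 10.38 (0.906), and NLGN1 had 8.76 against 8.37 to 8.43 (0.852). In CTCF-A KO replicate 1, the library with the strongest GC trend, ADGRL1 had 10.85 against 10.65 to 10.68 (0.862) and NLGN2 had 10.94 against 10.80 to 10.82 (0.848). In CTCF-B KO replicate 2, SEMA6B had 8.82 against 9.01 to 9.05 (0.837).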

How the results depend on the processing

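With the GC and length trend removed, the log2 differences from WT in CTCF-A KO were 0.99 for L1CAM, -1.95 for CADM1, 1.58 for PCDH10 and -1.75 for NTN1, with or without the replicate block, and CADM1 in CTCF-B KO was at -1.73. The listed genes that rose in CTCF-B KO were 9, against 16 with the trend removed, with or without the block, 14 with only the 8 libraries compared, 14 where replicate 4 stood alone for CTCF-A KO, and 8 to 14 when single libraries were left out. With that replicate alone, CTCF-A KO differed from WT by 1.08 for L1CAM, -2.12 for CADM1 and -0.04 for CDH2, 15 listed genes were lower in CTCF-A KO than in CTCF-B KO against 26, and CDH2 between the knockouts turned to 0.03 and TENM3 in CTCF-A KO to 0.08. Quantile normalization put CDH2 in CTCF-B KO at -0.01. With the trend removed, PVR turned to -0.01, CELSR2 to -0.11 and CDH4 to -0.07 in CTCF-A KO, and ADGRL1 to 0.13 in CTCF-B KO. Single values were tallied over the alternatives for only a part of the listed genes, so the tally misses other calls that changed. In it 1473 values kept direction and side of the threshold, 34 lost the call and 21 gained it. A further 10 moved in size and 10 changed sign. For the values that moved the cause was not tested. The replicate number does not pair the libraries (correlations of same-numbered libraries -0.319 to 0.433), and as a block it gave 52 listed genes in CTCF-A KO against 53 and 47 in CTCF-B KO against 48. Depth is unknown, so limits at low levels cannot be given.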
